A study of Mus musculus with 13 samples.

Results

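The genes described here are 10 members of the costimulation and checkpoint system through which T cells and antigen-presenting cells (APCs) read each other. They were chosen by symbol, whatever their level, as receptors or ligands of that system. The symbols matched 10 of the 21073 genes in the deposited table. On the T cell side they are Cd28, Icos, Ctla4, Pdcd1, Tnfrsf4 and the ligand gene Cd40lg. On the APC side they are Cd80, Cd86, Cd274 and the receptor gene Cd40. All 10 passed the filter on low values in each test.

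A T cell that meets its antigen needs a further signal, which CD28 delivers when it binds CD80 or CD86 on the presenting cell. CTLA-4 binds the same ligands with higher affinity and restrains the response, and PD-1, the product of Pdcd1, restrains it when bound by PD-L1, the product of Cd274. ICOS and OX40 (Tnfrsf4) sustain T cells once they are activated, and CD40 ligand on the T cell engages CD40 on the APC, which raises CD80 and CD86 there. In experimental autoimmune encephalomyelitis (EAE), a mouse model of multiple sclerosis, autoreactive T cells primed in lymphoid organs meet such ligands again on myeloid cells that have entered the spinal cord.

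RNA was sequenced in 13 libraries from C57BL/6J mice immunized with the myelin peptide MOG35-55 in complete Freund's adjuvant, and cells were taken on day 14. DKI mice are deficient in STAT5 tetramers. In DKI animals of this kind the knock-in changes lie in Stat5a and Stat5b and leave STAT5 dimers. The labels name no promoter or cell type restriction, so the change is not limited to the cells sequenced. For the Th17 groups, spleens and lymph nodes of mice that received no pertussis toxin were the source, and CD4+ T cells were sorted after 3 days of culture with the peptide under Th17 conditions. They are DKI cells with the chemokine CCL17 in the culture (n = 3), DKI cells without it (n = 3), DKI cells (n = 2) and WT cells (n = 2). The labels name no CCL17 for the last 2 of these groups. Below, the first 2 groups are called the CCL17 set and the other 2 the DKI and WT set. Myeloid cells, with 1 library per group, were sorted from DKI mice given pertussis toxin as monocyte-derived APCs of the spinal cord, monocytes of the spinal cord and monocytes of the bone marrow. There is no WT myeloid library.

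Levels are given as log2(RPKM + 1), the scale of the deposited values, where RPKM is a read count per length of gene and per depth of library, so that levels of different genes can be compared. Estimated read totals were 12500000 to 31900000 per library. T cell markers (7 genes) were all above 0 in the 10 Th17 libraries, with a summed RPKM of 1710 to 2390. The 4 Th17 markers Il17a, Il17f, Il23r and Ccr6 were above 0 in each of them as well, but their summed RPKM ran from 244 in DKI replicate 2 to 3350 in a replicate without CCL17. Myeloid markers (9 genes) summed to 648 to 1040 RPKM in the 6 libraries of the CCL17 set, against 20.4 to 88.8 RPKM in the 4 libraries of the DKI and WT set, with no marker at 0 in any of them. B cell markers (6 genes) summed to 59.0 to 92.7 RPKM in the CCL17 set, against 6.58 to 16.0 RPKM in the DKI and WT set. The 3 myeloid libraries had myeloid sums of 15200 to 20600 RPKM. Stat5a stood between 5.36 and 5.71 in DKI Th17 libraries and at 5.43 and 5.53 in WT, while Stat5b stood between 5.62 and 6.02 in the 8 DKI Th17 libraries, below the 6.24 and 6.31 of WT (DKI against WT -0.30, SE 0.10, adjusted p = 0.224). Since the change is a knock-in, neither level tests the genotype. In a bulk library, fewer cells of a type and less RNA per cell cannot be told apart.

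Promoter sequences were found for 5 of the 10 members (Cd274, Cd80, Ctla4, Pdcd1 and Tnfrsf4) in RefSeq's table for GRCm38.p6, which covers 250 bases before to 50 after the start used for each gene. Searched on both strands, TTCNNNGAA, the core of the sites that STAT proteins bind, was present in 8.3% of 32851 promoters and in 0 of these 5. TGGAAA, a core bound by NFAT, was in 21.4% of all promoters and in 2 of the 5 (Ctla4 and Tnfrsf4). TGANTCA, the core bound by AP-1, was in 7.81% and in 1 of the 5 (Cd80), and TATAAA was in 13.6% and in 2 of the 5 (Ctla4 and Cd80). The 3 sequences shown are those of the receptor gene with the highest median level in Th17 cells, the ligand gene with a TGANTCA match, and the ligand gene with the widest range over the 13 libraries. Capitals mark the matches to these motifs, and Cd274 has none in this window. All 3 are on the plus strand, at chr1:60908775-60909074 for Ctla4, chr16:38458683-38458982 for Cd80 and chr19:29367188-29367487 for Cd274. The windows of Cd80 and Cd274 lie inside the spans of these genes, which begin at 38457430 and 29362107, so the first bases of those spans were not searched.
Ctla4: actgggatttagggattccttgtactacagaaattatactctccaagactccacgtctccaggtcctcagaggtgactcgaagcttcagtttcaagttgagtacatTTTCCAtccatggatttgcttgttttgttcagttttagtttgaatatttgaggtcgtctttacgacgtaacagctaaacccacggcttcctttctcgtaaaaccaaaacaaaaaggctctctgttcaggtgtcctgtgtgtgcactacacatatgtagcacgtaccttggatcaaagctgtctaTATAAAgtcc
Cd80: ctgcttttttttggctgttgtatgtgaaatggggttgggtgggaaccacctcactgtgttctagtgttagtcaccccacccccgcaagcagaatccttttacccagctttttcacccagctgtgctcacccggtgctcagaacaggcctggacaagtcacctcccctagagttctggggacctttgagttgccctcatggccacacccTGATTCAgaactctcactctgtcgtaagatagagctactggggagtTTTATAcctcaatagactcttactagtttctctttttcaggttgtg
Cd274: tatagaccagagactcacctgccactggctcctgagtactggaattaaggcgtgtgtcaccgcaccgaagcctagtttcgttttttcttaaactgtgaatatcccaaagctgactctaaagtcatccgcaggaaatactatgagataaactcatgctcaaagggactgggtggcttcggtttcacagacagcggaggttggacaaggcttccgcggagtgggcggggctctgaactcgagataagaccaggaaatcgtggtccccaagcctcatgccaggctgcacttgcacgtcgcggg
In Ctla4 the NFAT core lies 144 bases before the start and the TATAAA match 40 bases after it. The TGANTCA match of Cd80 lies 42 bases before the start. These matches describe the letters only.

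The T cell receptor genes were abundant in every Th17 library. Cd28 (Entrez 12487, chromosome 1, 60746388 to 60773359 in GRCm38), the main costimulatory receptor, stood at 6.19, 6.30 and 6.23 with CCL17, at 6.13, 6.21 and 6.29 without it, at 6.54 and 6.25 in DKI and at 6.57 and 6.32 in WT. All 10 values lay between 6.13 and 6.57, with the DKI range overlapping those of the other 3 groups and the WT range just above those of the CCL17 set. In the myeloid libraries Cd28 was at 1.17 in cord APCs, 1.09 in cord monocytes and 0.26 in marrow monocytes.

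Ctla4 (Entrez 12477, chromosome 1, 60909025 to 60915832) and Icos (Entrez 54167, chromosome 1, 60960773 to 61000322) follow Cd28 on the same chromosome and are its nearest relatives. Ctla4 had the highest median of the 10 genes in Th17 cells, 8.35, with 7.97, 8.57 and 8.62 with CCL17, 8.14, 8.72 and 8.66 without it, 8.77 and 7.64 in DKI and 8.08 and 7.79 in WT. Icos followed, with 7.47, 7.96 and 7.95 with CCL17, 7.52, 7.91 and 8.02 without it, 8.50 and 7.30 in DKI and 8.21 and 7.86 in WT. For both genes the 2 DKI replicates were farther apart than any other replicates, and each DKI pair enclosed the WT pair. The same DKI libraries differed in the Th17 markers: Il17a, the signature cytokine, was at 10.38 in DKI replicate 1 and 7.57 in DKI replicate 2, and Ccr6, a chemokine receptor of Th17 cells, was at 5.24 and 2.80. The part of that difference in the receptor values was not tested. In RPKM, Ctla4 exceeded Cd28 by 2.64 to 5.76 times in the 10 Th17 libraries (median 4.39), and Icos exceeded it by 2.09 to 3.91 times (median 3.16).

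Tnfrsf4 (Entrez 22163, chromosome 4, 156013595 to 156016613), which encodes OX40, had 7.05, 7.25 and 7.34 with CCL17, 7.05, 7.44 and 7.28 without it, 7.82 and 7.21 in DKI and 7.76 and 7.37 in WT. Cd40lg (Entrez 21947, chromosome X, 57212143 to 57224042) was the most even of the 10 genes, with 6.53, 6.42 and 6.51 with CCL17, 6.53, 6.37 and 6.45 without it, 6.59 and 6.32 in DKI and 6.30 and 6.37 in WT (SD 0.10 over the 10 libraries). Pdcd1 (Entrez 18566, chromosome 1, 94038305 to 94052553) was the lowest of the T cell genes, with 5.47, 5.56 and 5.70 with CCL17, 5.50, 5.73 and 5.64 without it, 6.07 and 5.24 in DKI and 5.85 and 5.66 in WT. Replicate 1 of DKI was again the highest of the 10 libraries for Pdcd1, Tnfrsf4 and Cd40lg, and replicate 2 the lowest for Pdcd1. By median over the Th17 libraries the order was Ctla4 (8.35), Icos (7.93), Tnfrsf4 (7.31), Cd40lg (6.44), Cd28 (6.27) and Pdcd1 (5.65). The 10-library ranges of neighbours in this order overlapped for Ctla4 and Icos, for Icos and Tnfrsf4 and for Cd40lg and Cd28, and did not overlap between Tnfrsf4 and Cd40lg or between Cd28 and Pdcd1.

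**Figure D1:**
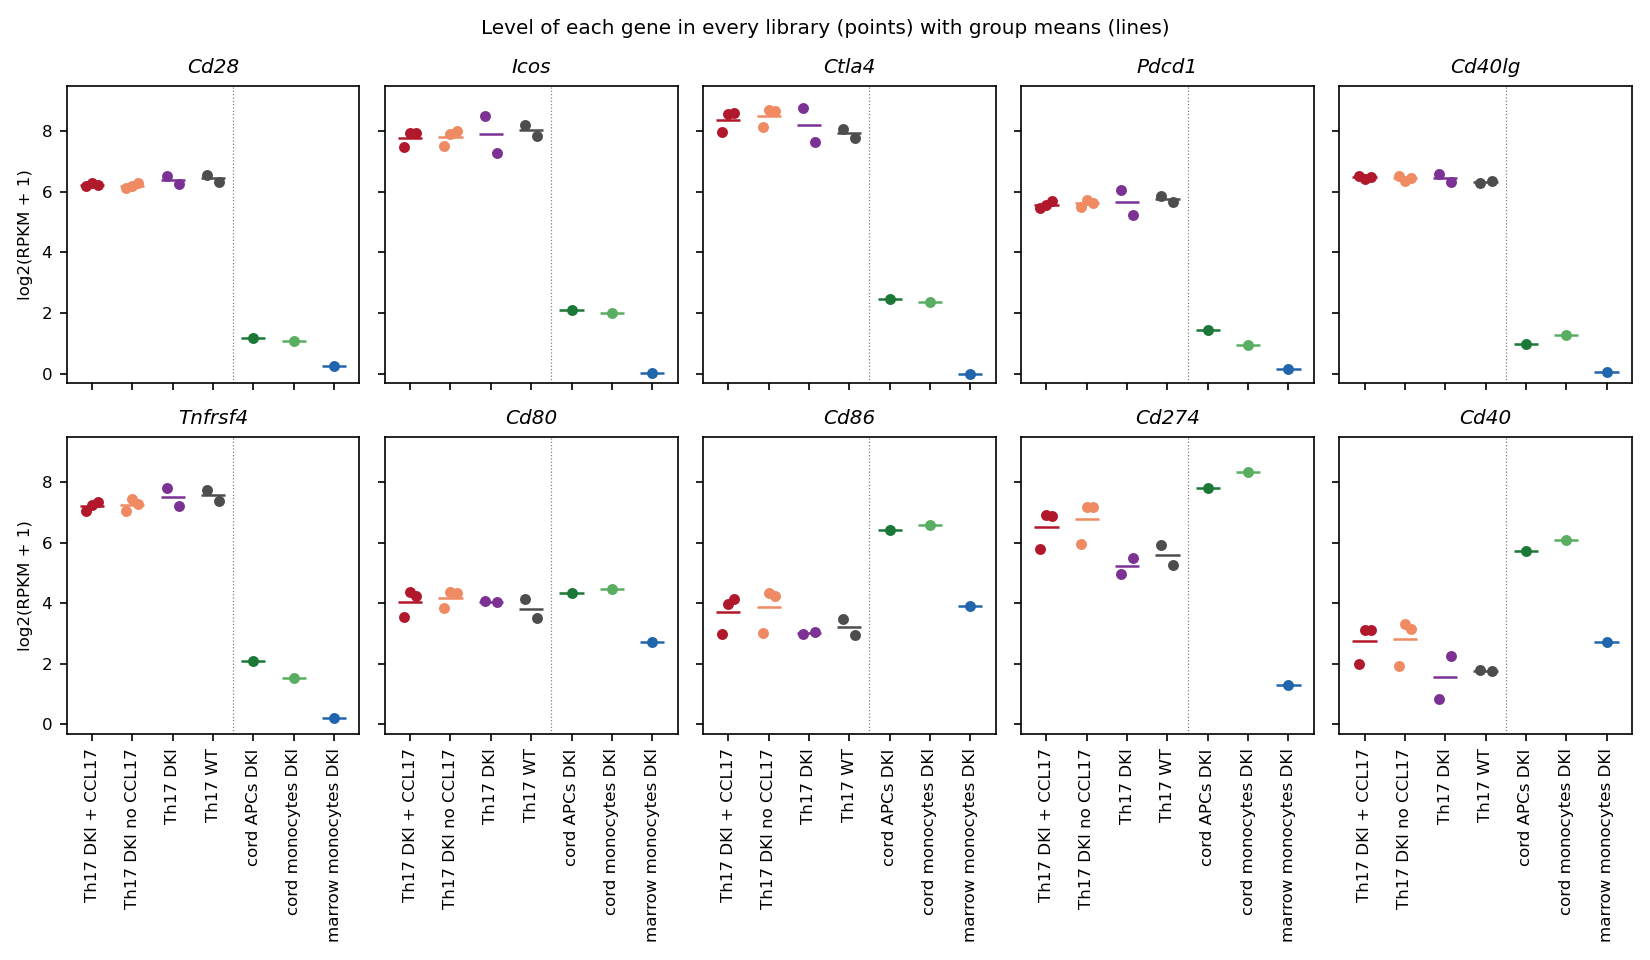
Level of each of the 10 genes in every library, as log2(RPKM + 1) on the vertical axis. Points are libraries, horizontal lines are group means, and the dotted line separates the Th17 groups (left, n = 3, 3, 2 and 2) from the myeloid groups (right, n = 1 each). The 6 T cell genes lie at 5.24 or more in all Th17 libraries and at 2.45 or less in the myeloid ones, while Cd274, Cd80, Cd86 and Cd40 are present on both sides.

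The genes of the presenting cell were also read in the Th17 libraries, and 3 of the 4 had lower medians there than any of the T cell genes. Cd274 (Entrez 60533, chromosome 19, 29362107 to 29388095) was the exception, with a median of 5.94, between Pdcd1 and Cd28, and levels of 5.79, 6.92 and 6.88 with CCL17, 5.95, 7.18 and 7.19 without it, 4.97 and 5.51 in DKI and 5.92 and 5.26 in WT. Activated T cells are themselves known to express PD-L1. In 4 of the 6 libraries of the CCL17 set Cd274 was near 7, and in replicate 1 of each of those groups it was near 6, which is where the higher WT library lay. Cd80 (Entrez 12519, chromosome 16, 38457430 to 38495958) ranged less widely, with 3.56, 4.37 and 4.24 with CCL17, 3.85, 4.37 and 4.34 without it, 4.08 and 4.04 in DKI and 4.15 and 3.51 in WT.

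Cd86 (Entrez 12524, chromosome 16, 36568956 to 36666158), the other ligand of CD28 and CTLA-4, had 3.00, 3.98 and 4.13 with CCL17, 3.03, 4.33 and 4.26 without it, 3.00 and 3.05 in DKI and 3.49 and 2.94 in WT. Cd40 (Entrez 21939, chromosome 2, 165055614 to 165071654), the receptor for CD40 ligand, was the lowest of the 10 in Th17 libraries, with 2.00, 3.11 and 3.12 with CCL17, 1.94, 3.33 and 3.17 without it, 0.85 and 2.26 in DKI and 1.79 and 1.76 in WT. The pattern of Cd274 recurred in both genes: replicates 2 and 3 of either group of the CCL17 set were high, and replicate 1 lay with the DKI and WT libraries. In the myeloid libraries the order of these 4 genes was Cd274 (7.80), Cd86 (6.44), Cd40 (5.72) and Cd80 (4.33) in cord APCs and the same in cord monocytes (8.34, 6.60, 6.10 and 4.46). Marrow monocytes had another order, Cd86 (3.91), Cd80 (2.74), Cd40 (2.73) and Cd274 (1.32). Cd86 exceeded Cd80 in RPKM by 4.49 times in cord APCs, 4.58 times in cord monocytes and 2.49 times in marrow monocytes, whereas in Th17 libraries the ratio of Cd86 to Cd80 was 0.442 to 0.976.

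The first comparison set the 10 Th17 libraries against the 3 myeloid libraries, to ask on which side of the T cell and APC exchange each gene was higher. The 6 T cell genes rose by 4.79 to 6.69 log2 units in Th17 libraries and had no overlap with the myeloid libraries, and Cd40 and Cd86 fell. For Cd40 and Cd86 both cord libraries lay above all Th17 libraries. Marrow monocytes, at 2.73 for Cd40 and 3.91 for Cd86, lay inside the Th17 ranges (0.85 to 3.33 and 2.94 to 4.33). Ctla4 differed most, by 6.69 (SE 0.43, adjusted p = 2.75e-08), or 103-fold on the log2(RPKM + 1) scale. Cd40 had a log2 fold of -2.52 (SE 0.65, adjusted p = 0.00364), and Cd86 had -2.13 (SE 0.51, adjusted p = 0.00205). All adjusted p-values are from limma with the Benjamini-Hochberg method over every gene tested. In this comparison each side pools unlike groups, and each myeloid group has 1 library. Its p-values thus measure a spread over unlike cells, not over replicates of a group alone.

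Among the other T cell genes the log2 fold was 6.50 for Icos (SE 0.36, adjusted p = 8.1e-09), 6.07 for Tnfrsf4 (SE 0.29, adjusted p = 2.14e-09), 5.67 for Cd40lg (SE 0.19, adjusted p = 7.83e-11), 5.46 for Cd28 (SE 0.16, adjusted p = 4.2e-11) and 4.79 for Pdcd1 (SE 0.22, adjusted p = 1.17e-09). The difference was not called for Cd80 (0.21, SE 0.31, adjusted p = 0.544) or Cd274 (0.34, SE 1.1, adjusted p = 0.786), and the sign of both turned with each library centred on its median (-0.40 and -0.27), as it did for Cd80 under quantile normalization (-0.33). Cd274 hangs on the marrow library: its 10 Th17 values lay between 4.97 and 7.19, below both cord libraries (7.80 and 8.34) and above marrow monocytes (1.32). Without the marrow library Cd274 was called, at -1.91 (adjusted p = 0.00782), and Cd80 stood at -0.34 (adjusted p = 0.174).

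In all, 8 of the 10 members were called at an adjusted p under 0.05, beside 73.4% of the 12141 genes tested, and 6 of 10 were called higher in Th17 libraries, beside 57.9% of all genes. The 2 called lower stand beside 15.5% of all genes. Groups did not overlap for 6 of 10 members and for 53.4% of all genes. The members' median log2 fold was 5.13, against 0.61 for all genes tested, so that the bulk of the transcriptome was also shifted towards the Th17 side. That shift depends on scaling: of the genes called, 78.9% were higher in Th17 libraries as deposited, 47.5% with libraries centred on their medians and 53.0% after quantile normalization. Tissue, culture, cell type, pertussis toxin and, for WT, genotype differ at once between the 2 sides and cannot be told apart.

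Among related genes of the pathway, the other receptors mostly lay on the Th17 side, while ligand and signalling genes went both ways. Beside the counts below, 57.9% of all genes tested were called higher in Th17 libraries and 15.5% lower. Of 20 other T cell costimulation and checkpoint receptors, all tested, 17 were higher in Th17 libraries, 2 were lower and 1 was not called, with a median log2 fold of 4.10. Tnfrsf8, which encodes CD30, was higher by 4.63 (SE 0.13, adjusted p = 3.09e-11), Tnfrsf25, the receptor for TL1A, by 4.68, and the T cell surface genes Cd5 and Cd6 by 6.22 and 5.65. Among 16 tested of 20 other ligand genes, 4 were higher, 5 were lower and 7 were not called, with a median of 0.08. Several ligands of this family are made by activated T cells, and Tnfsf8 (CD30 ligand, 5.52), Cd70 (the ligand of CD27, 3.37) and Tnfsf4 (OX40 ligand, 2.27) were higher on the Th17 side, while Tnfsf14 was at -1.46. Signalling genes downstream of the receptors were higher in 8 and lower in 6 of 16 cases, among them Prkcq, the protein kinase C of the T cell synapse (5.49), and Grap2 (4.86) on the Th17 side, with Traf5 at 1.09. Of 10 genes that costimulation is known to raise, 7 were higher as deposited and 0 lower, and 4 were called with libraries centred on their medians. They include Il2ra, the high-affinity subunit of the IL-2 receptor (7.78), Myc (3.00), Il2 (3.30) and Il21 (2.67).

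The next comparison set cord monocytes against marrow monocytes of DKI mice, which asks how the ligands stood in cells that had entered the inflamed tissue. With 1 library per group there is no test, and the intervals given are exact 95% intervals on estimated reads that cover counting error only. Cd274 reached 323 RPKM in cord monocytes, against 1.49 RPKM in marrow monocytes, a 217-fold difference (187 to 253). Cd40 had 67.8 RPKM in cord monocytes and 5.63 RPKM in marrow monocytes, a fold of 12 (11.0 to 13.2). Cd86 had 95.9 RPKM in cord monocytes and 14.1 RPKM in marrow monocytes, 6.81-fold higher (6.39 to 7.26). Cd80 was 3.70-fold higher (3.25 to 4.23), with 21.0 RPKM in cord monocytes and 5.67 RPKM in marrow monocytes. Of these 4 genes, that of the PD-1 ligand differed most and the CD28 ligand gene Cd80 least.

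Of the 4 members with at least 5 RPKM in either library, 3 were at least 4-fold higher in cord monocytes on the log2(RPKM + 1) scale, beside 6.23% of 8182 genes. Cd274 passed that minimum through the cord library alone, so the count partly follows from it. The log2 differences were 7.02 for Cd274, 3.38 for Cd40 and 2.68 for Cd86, with Cd80 at 1.72, and the median of all genes was -0.37. Centred on that median, Cd80 also passed 4-fold (2.09), and the share of genes at 4-fold that were higher was 67.6%, against 54.8% as deposited. Microglia markers (6 genes) summed to 432 RPKM in cord monocytes, with none at 0, and to 143 RPKM in marrow monocytes, with 1 at 0. Neutrophil markers (5 genes, none at 0) summed to 489 RPKM in cord monocytes and 4180 RPKM in marrow monocytes. The part of either in these values was not tested.

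Among other ligand genes with at least 5 RPKM in either library, 4 of 11 were 4-fold higher in cord monocytes and 0 were lower. All 4 were under 5 RPKM in marrow monocytes and passed that minimum through the cord library alone, so the count partly follows from it. They are Slamf7 (log2 difference 6.00, 196-fold), Tnfsf9, the ligand of 4-1BB (3.69), Pvr, a ligand of TIGIT (2.82), and Pdcd1lg2, which encodes PD-L2, the other ligand of PD-1 (3.35, with an estimated 410 reads in cord and 1 in marrow monocytes). Cd274 exceeded Pdcd1lg2 in RPKM by 15.5 times in cord APCs and 34.5 times in cord monocytes, and by 2.43 to 8.77 times in Th17 libraries. Of 8 other receptor genes past the same minimum, 4 were 4-fold higher in cord monocytes, among them Havcr2 (TIM-3, 3.75), Lag3 (3.37) and Tnfrsf9 (4-1BB, 3.25), and 1 was lower, the checkpoint receptor gene Btla (-3.69, with an estimated 85 reads in cord and 2537 in marrow monocytes). In the signalling list 1 of 13 was 4-fold higher, Traf1 (4.50), and in the list of costimulation-responsive genes 3 of 6 were, Cd69 (4.16), Nfkbia (3.81) and Bcl2l1 (2.64). Apart from Nfkbia and Bcl2l1, the genes named from these last 3 lists were likewise under 5 RPKM in the lower library.

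The T cell genes were low in the myeloid libraries, yet far from equal between cord and marrow. By estimated reads, Ctla4 had 211 in cord monocytes and 0 in marrow monocytes, so it was at least 84.3-fold higher, taking a floor of 3 reads for the marrow library. Icos had 258 reads in cord monocytes and 1 in marrow monocytes (312-fold, 55.0 to 12300). Cd28 had 131 reads in cord monocytes and 28 in marrow monocytes (5.61-fold, 3.71 to 8.77). Cd40lg had 47 reads in cord monocytes and 1 in marrow monocytes, Tnfrsf4 had 53 in cord and 5 in marrow monocytes, and Pdcd1 had 47 in cord and 7 in marrow monocytes. The 7 T cell markers moved the same way, summing to 23.5 RPKM in cord APCs and 21.9 RPKM in cord monocytes, with none at 0, and to 0.308 RPKM in marrow monocytes, with 4 of 7 at 0.

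Relative to the T cell marker sum, Ctla4 and Icos lay inside the range of the Th17 libraries in both cord libraries, and the other 4 genes lay above it in at least 1 of them. Ctla4 amounted to 19.0% of the T cell marker sum in cord APCs and 18.8% in cord monocytes, inside the 8.49% to 23.1% of the 10 Th17 libraries. Icos was at 14.0% in cord APCs and 13.7% in cord monocytes, also inside the Th17 range of 6.72% to 15.3%. Cd28 was at 5.34% in cord APCs and 5.16% in cord monocytes, just above the Th17 range of 3.22% to 4.57%. Pdcd1 lay above it in both, with 7.31% in cord APCs and 4.23% in cord monocytes against 1.58% to 2.89%. Tnfrsf4 was at 13.9% in cord APCs and 8.83% in cord monocytes, against 6.29% to 9.57% in Th17 libraries, and Cd40lg at 4.13% and 6.53%, against 3.29% to 5.10%. The T cells of the cord and those of the cultures are different cells, and the source of these reads was not tested.

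**Figure D2:**
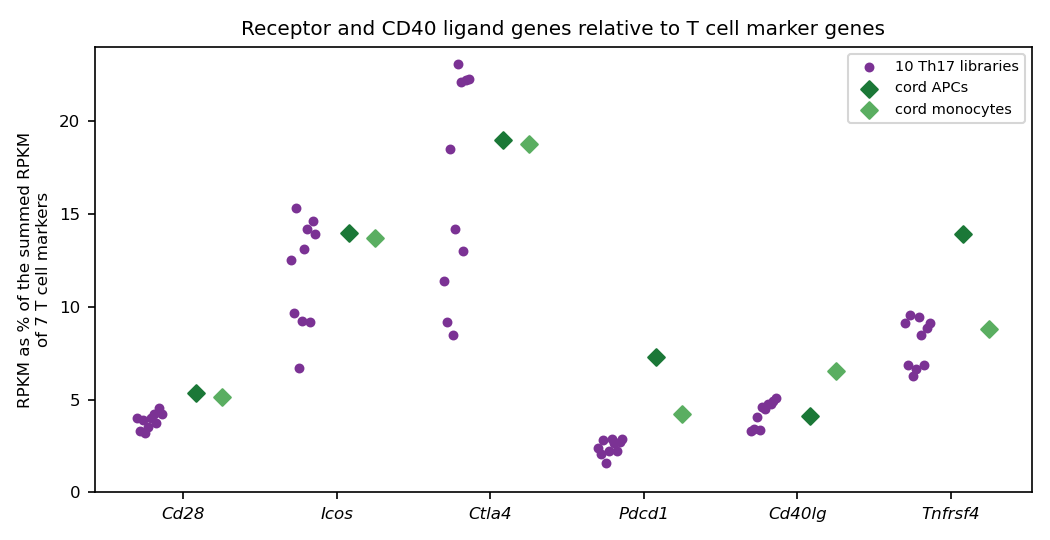
RPKM of the 6 T cell genes as a percentage of the summed RPKM of 7 T cell markers (vertical axis), for the 10 Th17 libraries (circles) and the cord APC and cord monocyte libraries (diamonds, n = 1 each). Ctla4 and Icos of the cord libraries lie within the spread of the Th17 libraries, Cd28 and Pdcd1 lie above it in both cord libraries, and Tnfrsf4 (cord APCs) and Cd40lg (cord monocytes) lie above it in 1.

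Cord APCs, which the labels call monocyte-derived, were then set against cord monocytes. The library taken as cord APCs carries a column abbreviation that no label spells out, and its values rest on that match. None of the 4 members with at least 5 RPKM in either library was 4-fold apart, beside 0.32% of 7499 genes. Cd274 was 1.46-fold lower in cord APCs (1.43 to 1.48), with 221 RPKM in cord APCs and 323 RPKM in cord monocytes. Cd40 was 1.31-fold lower (1.26 to 1.37), with 51.8 RPKM in cord APCs and 67.8 RPKM in cord monocytes, and Cd86 was 1.12-fold lower (1.08 to 1.16). For Cd80 the interval of the fold, 1.10-fold lower, ran from 0.998 to 1.21 and included no difference. All 4 values were thus slightly lower in the APC library, and 1 library per group cannot separate such folds from the spread between animals.

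On the T cell side, Pdcd1 had 81 reads in cord APCs and 47 in cord monocytes (1.86-fold higher, 1.30 to 2.75), and Tnfrsf4 had 82 reads in cord APCs and 53 in cord monocytes (1.69-fold, 1.18 to 2.43). Intervals for Cd28, Icos, Ctla4 and Cd40lg included no difference. The T cell marker sums were the 23.5 RPKM in cord APCs and 21.9 RPKM in cord monocytes given above. Of the related lists no gene was 4-fold apart. Lag3 came nearest, 3.46-fold higher in cord APCs (3.13 to 3.83), and microglia markers summed to 1070 RPKM in cord APCs and 432 RPKM in cord monocytes. Dendritic cell markers (6 genes, none at 0) summed to 84.0 RPKM in cord APCs and 10.2 RPKM in cord monocytes. Most of that difference lay in Ccr7 (45.2 RPKM in cord APCs and 2.18 RPKM in cord monocytes) and Fscn1 (29.7 and 3.25 RPKM). Also in the sum were Flt3 (3.42 and 2.17 RPKM), Clec9a (3.21 and 1.72 RPKM), Zbtb46 (1.79 and 0.245 RPKM) and Xcr1 (0.673 and 0.66 RPKM).

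Loss of STAT5 tetramers was tested in Th17 cells by setting DKI against WT (n = 2 each). None of the 10 members was called, beside 0% of 11789 genes, and none had an unadjusted p under 0.05, which 16.0% of all genes had. The largest log2 folds were -0.35 for Cd274 (SE 0.51, adjusted p = 0.758), 0.27 for Ctla4 (SE 0.38, adjusted p = 0.748) and 0.23 for Cd80 (SE 0.30, adjusted p = 0.737). The 95% intervals show what this fit could resolve, with a spread taken over all 10 Th17 libraries, the CCL17 set included. For Cd40lg it was -0.12 to 0.36 and for Cd28 -0.33 to 0.23, whereas it was -0.59 to 1.12 for Ctla4, -1.51 to 0.81 for Cd274 and -1.57 to 1.14 for Cd40. Groups did not overlap for 39.5% of all genes and for none of the members. The members' median log2 fold was -0.08, against 0.03 for all genes.

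No gene of the related lists was called either, although some were apart between groups. Of 19 tested receptor genes 4 had an unadjusted p under 0.05, as did 6 of 15 ligand genes, 3 of 16 signalling genes and 1 of 10 costimulation-responsive genes. The smallest p-values were those of Pdcd1lg2 (log2 fold 0.57, SE 0.12, adjusted p = 0.135), Tnfsf9 (0.60), Cd70 (0.89) and the receptor gene Tnfrsf14 (-0.47) among ligands and their partners, and of Pik3r1 (-0.41), a subunit of the PI3 kinase that CD28 and ICOS engage. Among receptors they were Cd27 (-0.46), Cd200r1 (-0.47), Tnfrsf18 (-0.33) and Slamf6 (-0.65). Il2ra, a known STAT5 target, was at 8.49 in DKI and 8.11 in WT (0.37, SE 0.13, adjusted p = 0.228). Myeloid markers summed to 20.4 and 33.3 RPKM in DKI and to 88.8 and 46.7 RPKM in WT, and Foxp3, the defining factor of regulatory T cells, which also express Ctla4, Icos and Tnfrsf4, was at 4.85 and 4.47 in DKI and 5.30 and 4.83 in WT. Their part in these values was not tested.

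Addition of CCL17 to DKI cultures was tested in 3 against 3 libraries. None of the 10 members was called, beside 0% of 11297 genes, and none had an unadjusted p under 0.05, which 3.64% of all genes had. Cd274 had the largest log2 fold, -0.24 (SE 0.44, adjusted p = 0.999), followed by Cd86 (-0.17), Cd80 (-0.13) and Ctla4 (-0.12). No member's groups were apart, beside 9.49% of all genes. For Cd28 and Cd40lg the 95% interval of the fold was -0.12 to 0.18, and for Pdcd1 -0.26 to 0.16, while for Cd274 it was -1.30 to 0.81, since replicate 1 of either group lay more than 1 log2 unit below the others.

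Deviations from the group means went together for same-numbered libraries of these cultures (r = 0.77, 0.51 and 0.52). Those of replicates 2 and 3 did so across numbers as well (0.50 and 0.53), so a pairing by number is not shown for them. With the replicate number as a block the intervals narrowed. Cd274 then had -0.24 (SE 0.04, interval -0.34 to -0.14, unadjusted p = 0.000736, adjusted p = 0.132), with the difference between same-numbered libraries at -0.16, -0.26 and -0.31. Ctla4 had -0.12 (SE 0.04, adjusted p = 0.294), also lower in 3 of 3 pairs, as were Cd86 and Cd80 (-0.3, -0.0 and -0.1 for Cd80). The share of all genes lower in 3 of 3 pairs was not counted. An unadjusted p under 0.05 was found for 1524 of 11297 genes in the limma fit with the block. No member passed the adjusted threshold in the limma fit with the block, in which 2 genes of all did. Without replicate 1 of either group, a choice made after the data were seen, Cd274 was called at -0.28 (SE 0.04, adjusted p = 0.0203), with 4 libraries left. Myeloid markers were also lower in the cultures with CCL17, summing to 648, 817 and 844 RPKM, against 682, 1020 and 1040 RPKM without it, and their part in the Cd274 difference was not tested.

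No gene of the related lists was called. An unadjusted p under 0.05 was found for 0 of 19 receptor, 15 ligand and 10 costimulation-responsive genes and for 1 of 16 signalling genes. The named receptors were Lag3 (-0.13), Tnfrsf9 (-0.19), Cd27 (0.08) and Cd200r1 (-0.22). Among ligands the smallest p-values were those of Tnfsf9 (-0.14), Cd70 (-0.19), Tnfsf14 (-0.15) and Lgals9 (-0.08). Il2 stood at 3.49 with CCL17 and 3.48 without it, and Il2ra at 8.94 and 8.95. These list medians were between -0.04 and 0.03, against -0.01 for all genes.

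**Figure D3:**
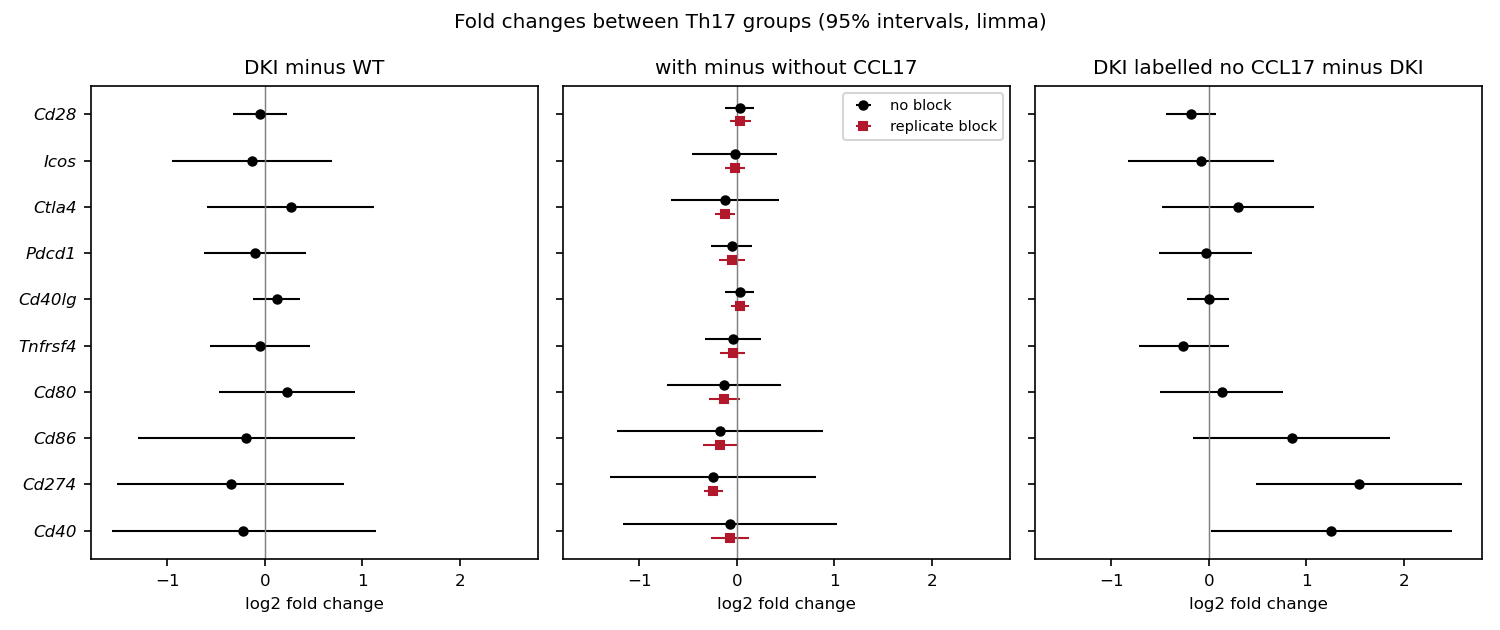
Log2 fold change of each gene (horizontal axis) in the 3 comparisons between Th17 groups, with 95% intervals from limma as bars. Circles are fits with no block and squares, in the middle panel, the fit with the replicate number as a block. Intervals include 0 in the left panel for all 10 genes, and Cd274 in the right panel is at 1.54.

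The series holds DKI Th17 cells without CCL17 in both sets, and setting those of the CCL17 set (n = 3) against those of the DKI and WT set (n = 2) shows how far the genes move between cultures that carry the same genotype label. Cd274 rose by 1.54 log2 units (SE 0.46, adjusted p = 0.034), or 2.90-fold, with no overlap between groups. Cd40 had 1.25 (SE 0.54, adjusted p = 0.109) and Cd86 0.85 (SE 0.44, adjusted p = 0.174), with 2 of the 3 libraries of the CCL17 set above both of the other DKI libraries. The T cell genes lay between -0.26 (Tnfrsf4) and 0.30 (Ctla4). Hence 1 of 10 members was called, beside 33.0% of 11789 genes, of which 15.3% were called higher and 17.7% lower. Groups were apart for 1 member and for 55.6% of all genes.

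The Cd274 call was not stable. It was lost without DKI replicate 1 (1.27, adjusted p = 0.147), without DKI replicate 2 (1.80, adjusted p = 0.0604, where Cd40 was called at 1.96, adjusted p = 0.0449, and Pdcd1 at -0.44, adjusted p = 0.0416), and without replicate 2 or 3 of the cultures without CCL17 (1.33 in each case, adjusted p = 0.099 and 0.102). Without replicate 1 of those cultures 3 members were called, Cd274, Cd86 (1.27, adjusted p = 0.0314) and Cd40 (1.69, adjusted p = 0.0384).

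Myeloid markers differed between the sets in the same direction, at 682 to 1040 RPKM in the cultures labelled without CCL17, against 20.4 and 33.3 RPKM in the other DKI cultures. All 9 of these markers and all 6 B cell markers had an unadjusted p under 0.05 in the same fit, beside 5224 of the 11789 genes tested. So did 5 of 5 neutrophil markers, which were also higher in the cultures without CCL17. An unadjusted p under 0.05 was likewise found for 4 of the 5 T cell markers counted, but all 5 were lower in those cultures. Lck was at 8.01, 7.89 and 7.81 without CCL17 and at 8.36 and 8.55 in the other DKI cells, and Cd3d at 7.94, 7.87 and 7.87 against 8.21 and 8.26. Foxp3 was at 2.83, 3.30 and 3.42 without CCL17 and at 4.85 and 4.47 in the other DKI cells. The part of these cells in the differences was not tested, and the set cannot be told apart from anything else that differed between the cultures.

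**Figure D4:**
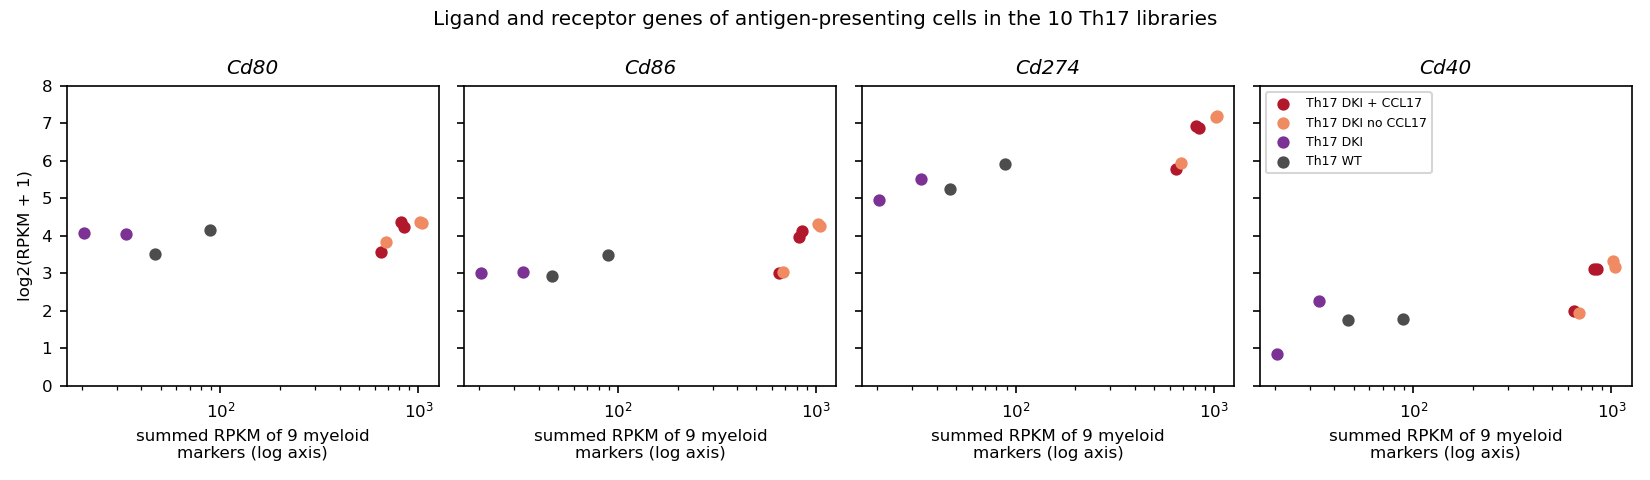
Level of Cd80, Cd86, Cd274 and Cd40 in the 10 Th17 libraries, as log2(RPKM + 1) on the vertical axis, against the summed RPKM of 9 myeloid markers on a log axis. Each point is a library, coloured by group. The 6 libraries of the CCL17 set lie at 648 to 1040 RPKM of markers and the 4 of the DKI and WT set at 20.4 to 88.8 RPKM, and within the CCL17 set the 2 replicates numbered 1 have the lowest sums and the lowest levels of all 4 genes.

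Among the related lists, receptors were called higher in 2 and lower in 7 of 19 cases, beside the 33.0% of all genes called in either direction. Cd27, a costimulatory receptor of naive and memory T cells, fell by 1.87 log2 units to 4.36, against 6.23 in the other DKI cells (SE 0.16, adjusted p = 0.000173). Slamf6 had -1.13, and Tnfrsf9 (0.84) and Cd200r1 (1.18) rose. Of 15 ligand genes 4 were higher, among them Slamf7 (2.59) and Pdcd1lg2 (0.58, adjusted p = 0.00532), and 3 were lower, among them Icosl, the ligand of ICOS (-0.92), and Tnfrsf14 (-0.85). Signalling genes were lower in 4 of 16 cases and higher in 0, and those lower include Prkcq (-0.96), Pik3cd (-0.92) and Grap2 (-0.81). Il2ra (0.46, adjusted p = 0.0177) and Nfkbia (0.43, adjusted p = 0.0447) were the 2 of 10 costimulation-responsive genes that rose, and with 1 library left out that count ran from 0 to 4 (0 without DKI replicate 2 or without replicate 3 of the cultures without CCL17). The count of receptors called, 9, fell to 4 without DKI replicate 1 and to 5 without DKI replicate 2 or replicate 3 of the cultures without CCL17, and that of ligands, 7, to 4 without replicate 2 of those cultures. This comparison shares its cultures without CCL17 with the CCL17 comparison and its DKI libraries with the DKI and WT comparison, so the 3 are not independent.

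Within the 10 Th17 libraries the members fell only partly into sets by the way they varied. This is described by Pearson's r of log2(RPKM + 1) and with no test, since the libraries fall into the 2 sets and share culture conditions. Cd274, Cd86 and Cd40 varied together (r = 0.94 for Cd274 with Cd86, 0.94 for Cd274 with Cd40 and 0.87 for Cd86 with Cd40), and Cd80 followed Cd86 (0.83). On the T cell side r was 0.94 for Icos with Pdcd1, 0.91 for Cd28 with Tnfrsf4 and 0.86 for both Icos and Pdcd1 with Tnfrsf4. Cd28 and Ctla4, which share their ligands, had r = 0.14. Ctla4 went with genes of both sides, with r = 0.71 for Cd80, 0.70 for Cd86, 0.68 for Icos, 0.61 for Pdcd1 and 0.57 for Cd274. Cd40lg followed none of the others (its highest r was 0.43, with Ctla4).

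Over 10691 genes compared, the genes most like each member were taken as the 2 with the highest r. Cd274 was like Mreg (0.988). The 2 genes were, for Cd40, Filip1l (0.973) and Tspan3 (0.970), for Cd86 Clcn7 (0.981) and Adprm (0.978), and for Cd80 Paip1 (0.951) and Ifng (0.930). Icos was most like Trpm6 (0.978) and Ccr6 (0.967), and Ccr6 (0.970) was also the first for Pdcd1, before Specc1l (0.966). Tnfrsf4 had Eno2 (0.984) and Tnc (0.960), Cd28 had Tcta (0.964) and Gpr15 (0.959), Ctla4 had Amz2 (0.980) and C9orf72 (0.970), and Cd40lg had Pdcd6ip (0.945) and Arhgef6 (0.935).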

How the data were processed

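Per the labels' protocols, KAPA mRNA HyperPrep kits were used to make the 13 libraries sequenced. Subread and featureCounts were used with mouse build mm10, per the submitters' processing notes, and the versions and settings used are not given in the sources used here. Values were deposited as log2(RPKM + 1) per gene, computed by the authors. A placeholder of 0.0001 for no reads was set to 0. The base was checked on length-weighted sums, which came to 1030000 to 1070000 in each library when read in base 2. The column taken as the spinal cord APCs is named SC-DKI-MDC. No label spells out MDC, and the column was matched because the sample's label calls these APCs monocyte-derived. Symbols were found for 20857 Entrez identifiers in RefSeq's gene table (GRCm38.p6), and the other 216 kept the deposited symbol.

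Read totals were estimated from the steps between low values (73.3% to 77.1% of low values within 0.1 of a whole read). Exact 95% intervals (Clopper-Pearson, scipy 1.17.1) on these reads cover counting error only. Tests used limma 3.58.1 (R 4.3.3) with a mean-variance trend on genes with RPKM of at least 1 in 2 libraries (3 for CCL17). The DKI comparisons used all 10 Th17 libraries as group means and the CCL17 comparison its own 6. The Th17 and myeloid comparison used all 13 libraries as 2 levels, each of which pools unlike groups. Genes were called at an adjusted p under 0.05. Myeloid pairs had no test, and genes with RPKM of 5 in either library were counted at 4-fold. Whether replicates came from separate animals is not stated, so p-values measure the spread between these libraries only.

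Residuals of same-numbered libraries correlated at 0.77, 0.51 and 0.52 in the CCL17 set, so the block is given beside its result, although no label says that a number marks a shared culture. Replicates 2 and 3 also correlated across numbers (0.50 and 0.53). The members and lists were chosen with earlier results of these data known. Named genes are the members, up to 4 genes per list and comparison with the smallest p (or largest difference), and the 2 genes most like each member. The Th17 markers, Stat5a and Foxp3 were added as checks of the samples, and member pairs, Il2 and other genes set beside a result were chosen after their values were seen. Some genes that this rule picks are not reported here. The procedure was tested on simulated data. Alternatives were the pseudocount (0.1), the filter, centring, quantile normalization, fits of fewer libraries, the block and each replicate left out.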

Additional observations from a re-analysis of the deposited data

How the results depend on the processing

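The count of members called in the Th17 and myeloid comparison stayed at 8 or 9 of 10 under all 19 alternatives, and that of DKI against WT stayed at 0 under all 10. The 6 T cell genes and Cd40 and Cd86 kept their direction and call between Th17 and myeloid libraries throughout. Cd80 reversed to -0.40 with centring and -0.33 with quantile normalization, and Cd274 to -0.27 with centring and -0.40 with the Th17 libraries of the DKI and WT set only, an alternative chosen after seeing the data. With each library left out in turn, log2 folds changed sign for Cd80 (-0.34 to 0.52) and Cd274 (-1.91 to 1.60), in both cases without the marrow library.

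Uncalled folds between Th17 groups changed sign when a library was left out. Ranges for DKI against WT were Cd28 (-0.20 to 0.09), Icos (-0.73 to 0.46), Ctla4 (-0.30 to 0.83), Pdcd1 (-0.51 to 0.31), Cd40lg (-0.01 to 0.25), Tnfrsf4 (-0.36 to 0.25), Cd80 (-0.09 to 0.55), Cd86 (-0.47 to 0.09) and Cd40 (-0.92 to 0.49). For CCL17 they were Cd28 (-0.01 to 0.07), Icos (-0.17 to 0.14), Ctla4 (-0.30 to 0.09), Pdcd1 (-0.11 to 0.01), Cd40lg (-0.01 to 0.07), Tnfrsf4 (-0.15 to 0.05), Cd80 (-0.30 to 0.11), Cd86 (-0.60 to 0.18), Cd274 (-0.65 to 0.13) and Cd40 (-0.51 to 0.30), and Icos was at 0.04 after quantile normalization. Between the DKI groups of the 2 sets they were Icos (-0.68 to 0.51), Ctla4 (-0.26 to 0.87), Pdcd1 (-0.44 to 0.38) and Tnfrsf4 (-0.56 to 0.05).

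The count of members called between those 2 DKI groups, 1 of 10, ranged from 0 to 3 with a library left out, was 0 without the filter (Cd274 adjusted p = 0.0538) and 0 in a fit of the 5 libraries compared (0.0554). With the replicate number as a block it was 2 (Cd40 1.07, adjusted p = 0.0476). For CCL17 it was 1 without replicate 1 of either group, chosen after seeing the data, where 213 genes were called, against 0 in all other alternatives. Blocking by replicate called 0 members in the DKI and WT comparison but 1129 genes in all, against 0 with no block. No label says that the 2 pairs there share more than a number. Their residual correlation was 0.42, and with 2 groups of 2 the -0.42 of unlike numbers is its mirror image.

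Counts over all genes moved by more than 1.5 times in DKI against WT (23 without the filter, and 0, 106, 7 and 485 with WT replicate 1, WT replicate 2, DKI replicate 1 and DKI replicate 2 left out), between the 2 DKI groups (3896, against 2565 without replicate 3 without CCL17 and 2423 in the fit of 5 libraries) and at a 2-fold threshold in the myeloid pairs (2494, against 930 at 4-fold, for cord and marrow monocytes, and 187, against 24, for cord APCs and cord monocytes). Among the related lists between the 2 DKI groups, the block called 5 receptors (9 without it) and 0 costimulation-responsive genes (2 without it, and 0 after quantile normalization). In DKI against WT the block called 4 receptors, 6 ligands, 2 signalling and 1 costimulation-responsive gene, against 0 of each with no block. The causes were not tested. The 6 T cell members in myeloid libraries rest on 0 to 261 estimated reads, and with 1 library per myeloid group the spread between animals is unknown.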
